A study of Mus musculus with 2 samples.

Results

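The 8 genes described here, Mlana, Pmel, Dct, Mitf, Sox10, Mbp, Cnp and Pmp22, mark lineages that arise from the neural crest, above all melanocytes and Schwann cells. They were matched by their Ensembl identifiers to GENCODE release M21 on GRCm38, and all 8 were found among 55401 genes. The samples were hearts of C57BL/6 mice that had undergone transverse aortic constriction (TAC), an operation that narrows the aortic arch and raises the pressure against which the left ventricle pumps, and their RNA was sequenced. There was 1 library labelled TAC and 1 library labelled TAC with dioscin, a plant steroidal saponin given for 4 weeks after surgery, here called the dioscin library. All animals thus carried the constriction, and hearts without surgery were not analysed here. The labels give neither the age of the mice nor the number of hearts in a library, and the treatment protocol is worded alike for both samples, so the groups rest on the treatment label. The genes were chosen by their lineage and selected on the ratio between these same libraries, in which Mlana and Mbp had been seen to be higher with dioscin. Every ratio below is therefore a description of 2 libraries and not a test of the treatment.

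The neural crest is an embryonic cell population that migrates from the dorsal neural tube and gives rise to melanocytes, to the glia of peripheral nerves and to autonomic neurons. The transcription factor Sox10 is needed in both the melanocyte and the Schwann cell lineage. In melanocytes it acts on Mitf, a basic helix-loop-helix leucine zipper factor, and Mitf in turn acts on pigment genes such as Dct, Pmel and Mlana. In Schwann cells Sox10 acts on myelin genes, among them Mbp, Cnp and Pmp22. Melanocytes have been described in the valves and atria of the mouse heart, and Schwann cells accompany the cardiac nerves. Several of the 8 genes are not restricted to these cells. Mitf is also used in heart muscle, mast cells and osteoclasts, Pmp22 and Cnp are transcribed in many tissues, and the Mbp gene has longer transcripts that are made in immune cells.

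Promoter sequences are shown for a pigment enzyme gene, for the lineage factor Mitf and for the myelin gene Pmp22, since these members stand for the pigment, regulatory and myelin parts of the group. Each is a RefSeq window on GRCm38.p6 of 250 bases before to 50 bases after a transcription start, written 5′ to 3′ on the strand of the gene, with capitals for matches of the motifs TCATGTG (the M-box of Mitf and related factors), CACGTG (an E-box), ACAAAG (a Sox site) and TGACGTCA (a cyclic AMP response element), searched on both strands. The motifs were chosen after the windows had been read. Windows were searched for 4 of the 8 genes.
Dct, chr14:118052197-118052496, minus strand: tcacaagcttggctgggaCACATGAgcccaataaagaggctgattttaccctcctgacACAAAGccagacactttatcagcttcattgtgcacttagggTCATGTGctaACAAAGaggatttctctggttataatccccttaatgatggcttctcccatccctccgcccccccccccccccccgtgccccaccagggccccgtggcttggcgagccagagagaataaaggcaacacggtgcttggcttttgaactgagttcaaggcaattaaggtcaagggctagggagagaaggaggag
Mitf, most downstream of its 3 windows, chr6:97991533-97991832, plus strand: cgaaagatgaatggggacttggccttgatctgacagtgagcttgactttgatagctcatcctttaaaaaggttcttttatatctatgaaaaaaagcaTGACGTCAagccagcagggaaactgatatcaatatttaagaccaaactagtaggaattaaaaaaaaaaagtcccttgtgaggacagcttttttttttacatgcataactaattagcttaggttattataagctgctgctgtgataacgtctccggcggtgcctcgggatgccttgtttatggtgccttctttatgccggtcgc
Pmp22, most upstream of its 4 windows, chr11:63128732-63129031, plus strand: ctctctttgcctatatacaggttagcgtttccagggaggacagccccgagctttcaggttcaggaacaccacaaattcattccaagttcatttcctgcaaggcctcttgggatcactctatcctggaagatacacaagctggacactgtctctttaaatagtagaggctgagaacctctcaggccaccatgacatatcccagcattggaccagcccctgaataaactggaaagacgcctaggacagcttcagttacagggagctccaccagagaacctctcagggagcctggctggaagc

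The Dct window held the M-box motif 2 times, as TCATGTG from base 100 and on the other strand as CACATGA from base 19, and ACAAAG 2 times, from bases 59 and 110. Of 32851 RefSeq windows of 300 bases, 3.77% held TCATGTG on either strand and 18.7% held ACAAAG. The downstream Mitf window, which lies at the start known as that of the melanocyte form, held TGACGTCA from base 98, a motif found in 1.79% of windows. The Cnp window held ACAAAG from base 84. None of the 4 Pmp22 windows held any of the 4 motifs. Counts were deposited per gene, so the starts of Mitf (8 annotated transcripts), Mbp (16) and Pmp22 (5) cannot be told apart in the values below.

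The library without dioscin had a total of 16782741 counts over genes and the library with dioscin 17612259. Counts are given as they were deposited and as CPM, the count of a gene scaled to a common library size with TMM factors. A count of 0 allows up to 3 counts, or 0.174 CPM without dioscin and 0.175 CPM with it. The Y-linked genes Ddx3y, Eif2s3y, Kdm5d and Uty had 285 to 2447 counts in both libraries, against 23 and 9 for Xist. Heart muscle markers were high in both, with Myh6 at 20675 and 22660 CPM. Markers of atrial muscle, however, differed sharply between the libraries, with a summed level of 592 CPM without dioscin and 17319 CPM with it. Nppa alone had 588 and 12663 CPM of these sums. Myl4 went from 3.185 to 1970 CPM, Myl7 from 0.753 to 1759, Sln from 0.0579 to 726 and Mybphl from 0 to 200. Of the 6 listed atrial markers 5 were higher by the rule given below, as were 7 of 8 mesothelial and 5 of 6 fat markers. Sln, Myl7, Mybphl, the called fat markers and most of the called mesothelial markers reached 1 CPM only through the dioscin library. Such genes could not have been called lower. Marker sums for mesothelium (18.5 and 153 CPM), fat (0.811 and 30.7 CPM) and valve and tendon-like matrix (24.6 and 120.5 CPM) were higher in the dioscin library as well. The part of these markers in the results below was not tested.

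A gene is called higher or lower with dioscin by 3 conditions: a level of 1 CPM or more in either library, a 2-fold or larger ratio, and an exact 95% Clopper-Pearson interval of the counts that excludes 1. This size rule covers counting error only, since differences between mice were not measured. By this rule Mlana, Mbp and Pmp22 were higher in the dioscin library and none of the 8 genes was lower. Pmel, Dct, Mitf, Sox10 and Cnp did not pass the rule, and of these only Cnp had a ratio above 1. Of all 15697 genes that reached 1 CPM, 10.5% were called higher and 8.77% lower, together 19.3%. Nothing is read from the 3 of 8 against that share, because Mlana and Mbp were chosen for this difference. The median log2 ratio was 0.01 over the 8 genes and 0.01 over all genes at or above 1 CPM.

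**Figure D1:**
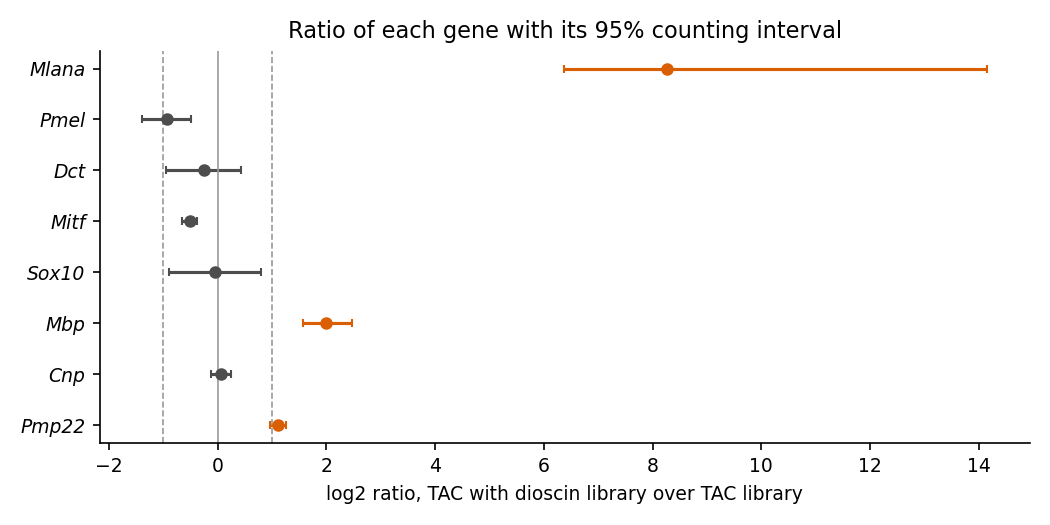
Log2 ratio, with dioscin over without, for each of the 8 genes, with bars for the exact 95% counting interval and dashed lines at a 2-fold difference. Orange marks the genes that passed the size rule, and Mlana stands apart at a log2 ratio of 8.27, whereas the other pigment genes Pmel and Dct lie below 0.

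Mlana encodes melan-A, a small membrane protein of early melanosomes (ENSMUSG00000024806.4, chromosome 19, 29697824 to 29708634, plus strand). It had 1 count without dioscin and 458 counts with it, or 0.0579 and 26.8 CPM. The gene was thus almost absent from the first library and well measured in the second. The ratio was 308 with an interval of 82.5 to 18290, so its size is poorly bounded from above, and adding 2 counts instead of 0.5 to both libraries gave 155. Mlana reached the filter of 1 CPM only through the dioscin library. Only 7 genes at or above 1 CPM had a larger ratio. Of these, 4 were on the atrial list (Sln, Mybphl, Myl7 and Myl4), 2 on the mesothelial list (Krt18 and Krt8), and the other was Fgf12, an intracellular fibroblast growth factor homologue with 0 and 633 counts, named here after its values were seen. The ratios of genes with 0 counts depend on the pseudocount.

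The other pigment genes did not share this difference. Pmel, which encodes the fibril-forming matrix protein of the melanosome (ENSMUSG00000025359.10, chromosome 10, 128704195 to 128720238, plus strand), had 127 counts without dioscin and 66 with it. Its level was 1.90-fold lower in the dioscin library (1.41 to 2.61), just outside the size rule. With libraries scaled by their total gene counts the same counts gave 2.01-fold lower, which passes the rule. Exons of 2 genes on the opposite strand, Dgka and Cdk2, cover 4.58% and 1.48% of the exonic length of Pmel, and the library kit does not mark strand. Dgka, a diacylglycerol kinase, had a ratio of 0.642 and the cell cycle kinase gene Cdk2 a ratio of 0.857. Dct, dopachrome tautomerase, an enzyme of eumelanin synthesis (ENSMUSG00000022129.4, chromosome 14, 118012790 to 118052244, minus strand), had 42 and 35 counts. Its ratio of 0.843 had an interval of 0.521 to 1.35, which holds no 2-fold difference, and a smaller one in either direction was not detectable at this depth.

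The lineage factors were not higher either. Mitf (ENSMUSG00000035158.15, chromosome 6, 97807052 to 98021349, plus strand) had 1003 counts without dioscin and 698 with it, or 58.1 and 40.8 CPM. The ratio of 0.702 (0.637 to 0.774) lay inside a 2-fold difference, with an interval that excludes 1. Sox10 (ENSMUSG00000033006.10, chromosome 15, 79154908 to 79165240, minus strand) had 26 and 25 counts. Its ratio was 0.971 (0.537 to 1.75), from 1.51 to 1.46 CPM, and its low counts would hide a difference inside that interval. In bulk tissue, fewer cells of a type and less RNA per cell cannot be told apart.

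Of the myelin genes, Mbp and Pmp22 were higher in the dioscin library and Cnp was not. Mbp, myelin basic protein, which compacts the myelin sheath (ENSMUSG00000041607.17, chromosome 18, 82475146 to 82585637, plus strand), had 53 counts without dioscin and 211 with it. The ratio was 3.99 (2.96 to 5.54), from 3.07 to 12.3 CPM, and 490 genes at or above 1 CPM had a larger one. Because the gene also has immune cell transcripts, immune markers are given beside it. Markers of B cells summed to 15.8 CPM without dioscin and 3.56 CPM with it, and 4 of 5 were lower by the size rule. T cell markers summed to 8.17 and 3.33 CPM, with 2 of 4 lower. Macrophage and osteoclast markers summed to 125.5 and 258.6 CPM, with 3 of 8 higher and none lower. Among the higher were Lyve1 (7.59 and 73.6 CPM) and Cd163 (14.7 and 56.1 CPM). The 5 that did not pass had ratios of 1.01 (Cd68) to 1.77 (Acp5). The part of these immune markers in the Mbp difference was not tested.

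Pmp22, peripheral myelin protein 22, a tetraspan membrane protein of compact myelin (ENSMUSG00000018217.12, chromosome 11, 63128982 to 63159547, plus strand), had 564 counts without dioscin and 1202 with it. Its ratio of 2.15 (1.94 to 2.38) lay just inside the size rule. With libraries scaled by total counts without mitochondrially encoded genes, a scaling that moved the median log2 ratio of all genes to -0.21, Pmp22 had a ratio of 1.86 and did not pass. That scaling also moved the share of higher genes among all genes called from 54.6% to 35.8%. Fibroblast markers, whose cells are known to transcribe Pmp22, summed to 1105 CPM without dioscin and 3282 CPM with it, with 4 of 7 higher and none lower. Most of these sums came from Gsn (666 and 1900 CPM) and Dcn (259 and 1062 CPM). Pdgfra, Tcf21 and Col1a1 did not pass, with ratios of 1.40, 1.17 and 1.05. All 7 fibroblast markers had a ratio above 1, and their median log2 ratio was 1.23. The part of these markers in the Pmp22 difference was not tested. Cnp, the gene of the myelin enzyme cyclic nucleotide phosphodiesterase (ENSMUSG00000006782.16, chromosome 11, 100574904 to 100591729, plus strand), had 483 and 503 counts. Its ratio was 1.05 (0.925 to 1.19) and turned to 0.992 when libraries were scaled by total counts. The opposite-strand gene Dnajc7 covers 4.23% of the exonic length of Cnp and had a ratio of 0.936.

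**Figure D2:**
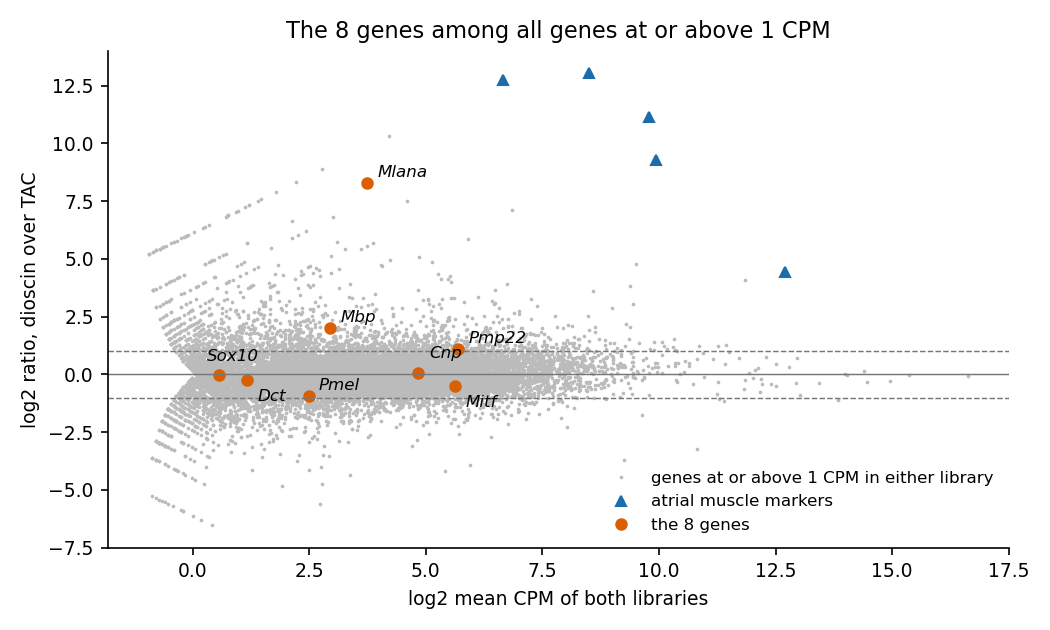
Log2 ratio against log2 mean CPM for all 15697 genes at or above 1 CPM in either library (grey), the 8 genes (orange) and the atrial markers (blue triangles), with dashed lines at a 2-fold difference and ratios computed with a pseudocount of 0.5. Mlana lies far above the cloud at a log2 ratio of 8.27, on the side of the atrial markers, while Sox10, Dct and Cnp lie near 0.

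Levels were compared between genes only as CPM per kb of exon, where the length is that of all annotated exons of a gene joined, which understates genes with many rarely used exons such as Mbp. In the TAC library Pmp22 was highest at 13.9 CPM per kb (exact Poisson 95% interval 12.7 to 15.1), followed by Mitf at 9.37, Cnp at 7.69 and Pmel at 3.21. These 4 genes did not overlap in their counting intervals. Sox10 (0.493), Dct (0.413), Mbp (0.362) and Mlana (0.0548) followed, and each overlapped the next in its interval. In the dioscin library Pmp22 was again highest at 29.8 CPM per kb, and Mlana had moved from the last place to the second at 25.3 (23.0 to 27.7). Cnp at 8.07 and Mitf at 6.58 came next, then Pmel at 1.68 and Mbp at 1.46, whose intervals overlapped. Sox10 at 0.479 and Dct at 0.347 were lowest and overlapped as well. By length-corrected level, Mlana in the dioscin library was above 90.9% of the genes at or above 1 CPM, whereas Dct was above 7.0% of them.

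**Figure D3:**
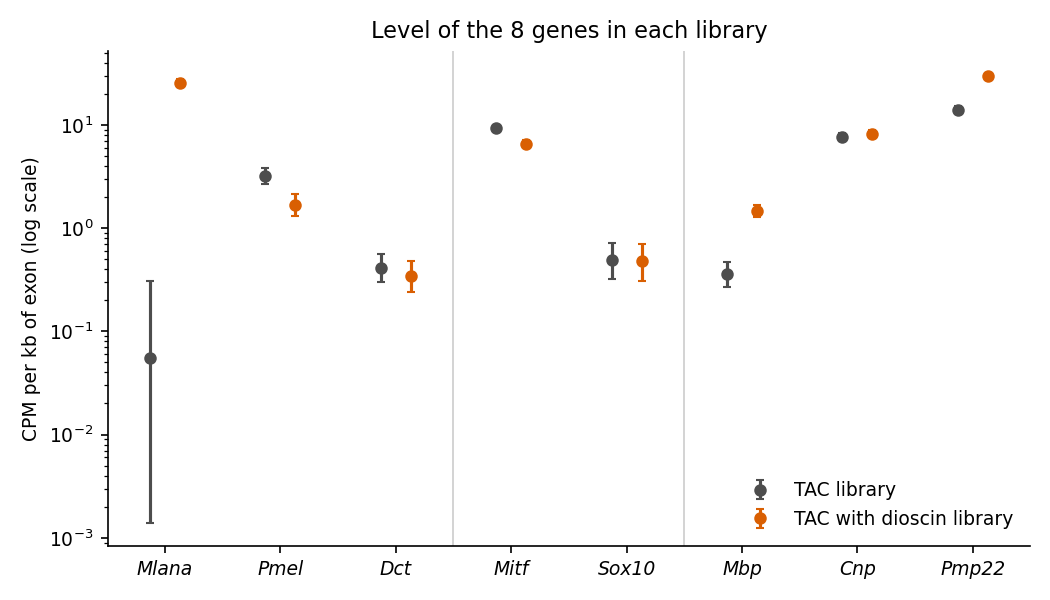
Level of each gene in CPM per kb of exon on a log axis, with the TAC library in grey and the dioscin library in orange and bars for the exact Poisson 95% interval of the counts. Vertical lines separate the pigment genes, the lineage factors and the myelin genes, and Mlana moves from 0.0548 to 25.3 while Pmel, Dct and Sox10 stay below 4 CPM per kb in both libraries.

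The label of the group was checked against further genes of the lineages. Of 14 other melanocyte and pigment organelle genes, 7 reached 1 CPM, with 3 called higher and none lower by the size rule (median log2 ratio 0.82). Over all genes, 10.5% were called higher and 8.77% lower. Gpnmb and Mlph, described below, reached 1 CPM only through the dioscin library. Neither could have been called lower, and both enter the median. The enzyme genes Tyr, tyrosinase, and Tyrp1, its relative, and the transporter genes Oca2 and Slc45a2 were at 0 counts in both libraries. Mc1r, the melanocortin receptor of melanocytes, was at 0 counts in both as well. Tyr and Tyrp1 were thus not detected in the library in which Mlana was high, where the pigment enzyme gene Dct had 35 counts, and the name melanocyte is used here only for the genes and not for a cell population. Gpnmb, a melanosome and lysosome glycoprotein also made by macrophages, had 9 and 112 counts, a ratio of 11.9 (6.38 to 28.2). Rab27a, a small GTPase of melanosome and granule transport, had 61 and 233 counts, a ratio of 3.83 (2.90 to 5.20). Its linker melanophilin, Mlph, had 7 and 29 counts, a ratio of 3.97 (1.79 to 11.3). Myo5a, the myosin that completes this transport complex, had 505 and 436 counts and a ratio of 0.871.

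Of 5 matched ligands and receptors of melanocytes, 4 reached 1 CPM, with 1 higher and 2 lower (median log2 ratio -0.73). Kit, the receptor tyrosine kinase needed for melanocyte survival and also used by mast cells, went from 336 to 63 counts, 5.25-fold lower (4.03 to 7.03). Its ligand gene Kitl had a ratio of 0.781 (0.737 to 0.827). The endothelin receptor gene Ednrb, which is also used by endothelial and smooth muscle cells, went from 439 to 967 counts, a ratio of 2.22 (1.98 to 2.49), while its ligand gene Edn3 went from 57 to 26 counts, 2.15-fold lower (1.34 to 3.60). Under the scaling without mitochondrial genes Ednrb did not pass the rule. The relatives of Mitf showed no called difference, with ratios of 0.848 for Tfeb and 0.876 for Tfe3, both factors of lysosome genes.

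Schwann cell genes gave a mixed picture. Of 15 other genes of myelinating Schwann cells, 6 reached 1 CPM, of which 2 were higher and none lower (median log2 ratio -0.07). Mag, the myelin-associated glycoprotein, had 4 and 6 counts and stayed under 1 CPM. Mal, a lipid raft protein of myelin and of epithelia, went from 123 to 381 counts, a ratio of 3.12 (2.54 to 3.86). Drp2, a dystrophin-related protein of the Schwann cell surface, had 9 and 27 counts, a ratio of 2.92 (1.38 to 7.32). The adhesion gene Cadm4 had a ratio of 1.05 (0.749 to 1.48).

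Of 14 genes of non-myelinating, immature and repair Schwann cells, 8 reached 1 CPM, with 2 higher and none lower (median log2 ratio 0.13). Scn7a, a sodium channel of non-myelinating Schwann cells, had 57.8 and 69.9 CPM, a ratio of 1.21 (1.11 to 1.32). Cdh19, a cadherin of the Schwann cell lineage, had 207 and 151 counts and a ratio of 0.737 (0.593 to 0.912). Scn7a and Cdh19 thus stayed inside a 2-fold difference, whereas Col28a1 and Ncam1 of the same list did not. Col28a1, a collagen of peripheral nerve, went from 18 to 89 counts, a ratio of 4.88 (2.98 to 8.80). Ncam1, the neural cell adhesion molecule, went from 69 to 145 counts, a ratio of 2.11 (1.58 to 2.87), and did not pass when libraries were scaled by total counts.

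Of 12 Schwann cell ligands and receptors, 11 reached 1 CPM, with 3 higher and 2 lower (median log2 ratio 0.17). Nrg1, the neuregulin that drives Schwann cell growth and is also made by endocardium, went from 29 to 96 counts, a ratio of 3.30 (2.19 to 5.25). Its receptor genes differed little, with ratios of 1.18 for Erbb2 and 1.10 for Erbb3. Adgrg6, an adhesion receptor needed for myelination, went from 35 to 111 counts, a ratio of 3.17 (2.17 to 4.82). Adam22, the Schwann and axonal receptor of Lgi proteins, went from 185 to 469 counts, a ratio of 2.55 (2.15 to 3.05).

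Of 14 other neural crest transcription factors, 9 reached 1 CPM, with 1 higher and 1 lower (median log2 ratio -0.30). Sox5 went from 28 to 107 counts, a ratio of 3.81 (2.52 to 6.07), and Sox8, a close relative of Sox10, from 19 to 7 counts, 2.58-fold lower (1.08 to 7.57). Ets1 (0.550) and Zeb2 (1.19), which are also used in vessels and other mesenchyme, stayed inside a 2-fold difference. Under the scaling without mitochondrial genes Ets1 passed as lower. The crest factors Pax3, Tfap2a, Tfap2b and Foxd3 had 0 to 3 counts in each library. In the Pmp22 family, none of 3 measured relatives passed the rule, with ratios of 1.29 for Emp1, 0.976 for Emp2 and 1.49 for Emp3.

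Over these 8 lists together, 50 genes reached 1 CPM, of which 12 were called higher (24%) and 5 lower (10%), and their median log2 ratio was 0.04. They were described with earlier results of these libraries known. The shares beside the 10.5% and 8.77% of all genes thus describe these libraries and nothing more. Of the called genes, Gpnmb, Mlph and Drp2 reached 1 CPM only through the dioscin library and Sox8 only through the TAC library.

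**Figure D4:**
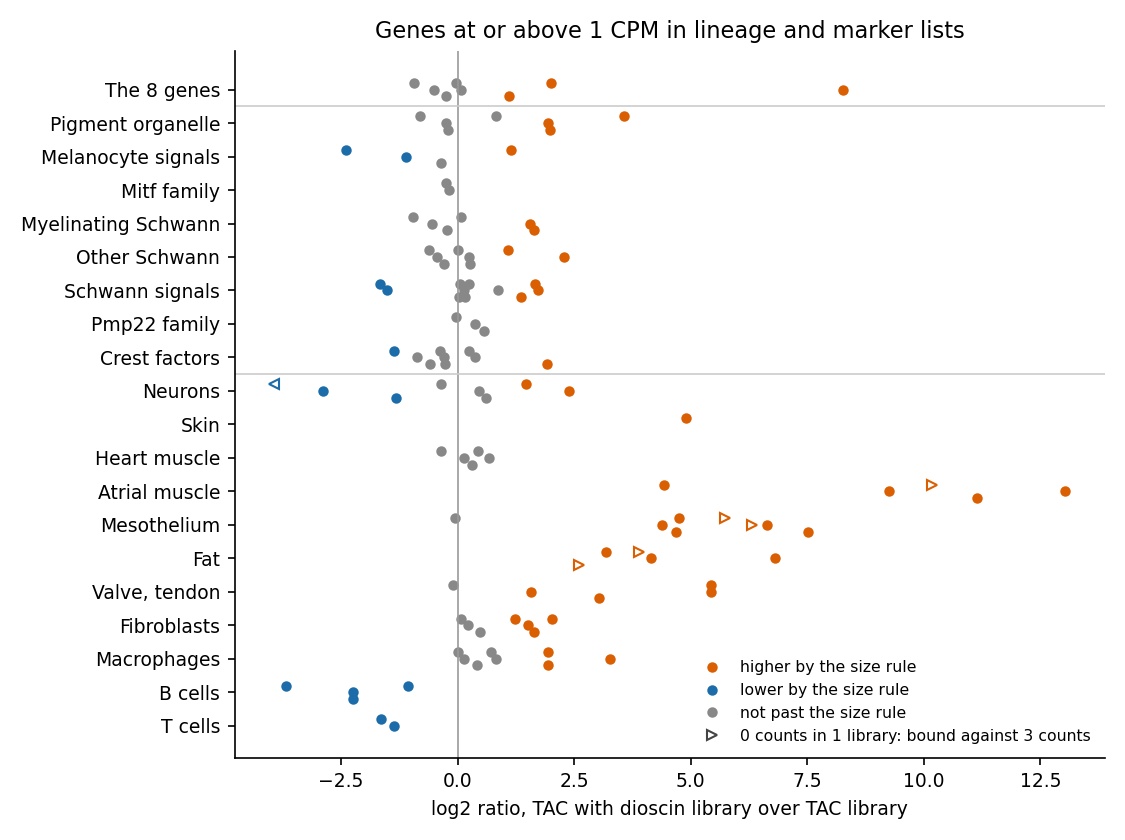
Log2 ratio, with dioscin over without, among the 8 genes and for the genes at or above 1 CPM in the lineage lists (between the horizontal lines) and in marker lists for other cell types (below), with orange for higher, blue for lower and grey for genes not past the size rule. Open triangles show genes at 0 counts in 1 library at their bound against 3 counts. Among the lineage lists the points lie on both sides of 0, with Mlana the farthest of the upper rows, while the atrial, mesothelial and fat markers at or above 1 CPM lie mostly above 2.5.

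Markers of other cell types that share these genes were read in the same way. Oligodendrocyte markers, given because Mbp and Cnp are also central myelin genes, summed to 0.463 and 0.234 CPM and none of the 5 reached 1 CPM. Olig1 and Olig2, the lineage factors of oligodendrocytes, were at 0 counts in both libraries. Of 5 skin keratinocyte markers, Krt5 and Krt1 were at 0 counts in both libraries, and Krt14 alone reached 1 CPM, with 1 and 44 counts. Among the atrial markers, Bmp10 alone was under 1 CPM in both libraries. The atrial calcium pump regulator Sln had 1 and 12433 counts and the atrial myosin light chain Myl7 had 13 and 30109. Mybphl, a myosin-binding protein of atrial tissue, had 0 and 3427 counts. Mlana had a similarly low count in the TAC library. In the dioscin library the level of Mlana was 25.3 CPM per kb and that of Sln 551 CPM per kb. Of 8 valve and tendon-like matrix genes, 4 were higher and 1 did not pass the rule, with Fmod, fibromodulin, at 7 and 322 counts, Cilp2, a cartilage layer protein, at 9 and 408, and Comp, cartilage oligomeric matrix protein, at 54 and 440. Their part in the Mlana difference was not tested.

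The genes next to the called members were read as well. Mlana has no annotated overlap with the exons of another gene. Its nearest protein-coding neighbours did not pass the size rule, with a ratio of 1.71 (1.39 to 2.11) for Ermp1, 49409 bases away, and 0.659 (0.556 to 0.779) for 9930021J03Rik, 5768 bases away. Next to Mbp, the zinc finger gene Zfp236 had a ratio of 0.676 (0.609 to 0.750) and the galanin receptor gene Galr1 had 0 and 1 counts. A ribosomal protein pseudogene inside the Mbp gene, Rpl21-ps8, shares no exonic base with it and had a ratio of 0.848. Next to Pmp22, Tekt3 had 0 and 1 counts and Hs3st3b1, a heparan sulfate sulfotransferase gene, had 20 and 22. None of the nearest protein-coding neighbours of Mlana, Mbp or Pmp22 was called higher or lower.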

How the data were processed

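Total RNA was taken from frozen hearts and libraries were made from 1 ug with a TruSeq RNA kit, per the labels' protocols. The authors deposited unnormalized read counts for each gene, for which the submitters' processing notes name HISAT2 2.1.0, HTSeq and the build mm10. The sources used here do not give the annotation release or the strand setting of HTSeq. The closing HTSeq lines that name no gene (73.8% of all counted reads without dioscin and 71.6% with it) were left out. Library sizes were scaled by TMM (edgeR 4.0.16, R 4.3.3). Ratios used a pseudocount of 0.5, and intervals were exact at 95%. With 1 library per group no test of the treatment was possible. PCR copies were not told apart, so intervals and the limit of 3 counts cover counting error only.

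The members and lists were chosen with earlier results of these data known. Named were all 8 members, up to 4 genes of each lineage list and up to 3 of each marker list (those past the size rule by the interval bound nearest to 1, then by mean CPM), and neighbours of called members. Other genes named were at 0 or few counts, or are said to be named after their values were seen. Identifiers were matched without version, 55141 of 55401. Some genes that this rule takes are not reported here. Asip had no identifier under that symbol. The ratio, interval and size rule were tested on simulated data.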

Additional observations from a re-analysis of the deposited data

How the results depend on the processing

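Mlana and Mbp stayed higher under every alternative run, which were 3 other scalings, a pseudocount of 2, no filter, a filter of 5 CPM and a ratio of 1.5. Without mitochondrially encoded genes in the totals, the ratios were 0.609 for Mitf, 0.911 for Cnp and 1.86 for Pmp22, which no longer passed. The other 29 ratios of members under alternatives stayed inside their main counting intervals. Pmel was the 1 member lower by total counts, by totals without mitochondrial genes and at a ratio of 1.5. Over all genes, 2286 were lower without mitochondrial genes, 1045 were higher and 695 lower at 5 CPM, and 3187 were higher and 2815 lower at a ratio of 1.5. Over the lineage lists, the genes lower were 10 without mitochondrial genes, 2 at 5 CPM and 8 at a ratio of 1.5. At 5 CPM the calls of Mlph, Drp2, Edn3, Sox8, Ntf3, Phox2a, Dbh, Prph and Krt14 fell away. By list, 16 of the counts and 15 of the medians moved. Dct and Sox10 are limited by depth. No paired analysis was possible because each group had 1 library.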

Other observations

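Of 21 genes of cardiac neurons and their fibres, 8 reached 1 CPM, with 2 higher (25%) and 3 lower (37.5%) in the dioscin library (median log2 ratio 0.06), beside 10.5% and 8.77% of all genes. Dbh, dopamine beta-hydroxylase, the enzyme that makes noradrenaline, went from 46 counts to 0. Its level was 15.2-fold lower with the dioscin count set to the floor of 3. The nearest bound of its exact interval was 11.9-fold lower. Th, tyrosine hydroxylase, the enzyme before it in the same pathway, was at 0 counts in both libraries. Phox2a, a factor of autonomic neurons, went from 18 to 2 counts, 7.34-fold lower (2.14 to 79.3). Phox2a and Dbh reached 1 CPM only through the TAC library. Prph, from the same list, went from 4 to 23 counts, a ratio of 5.27 (1.98 to 23.1), and reached 1 CPM only through the dioscin library. Hand2, a factor of sympathetic neurons that is also used in heart and mesenchyme, went from 329 to 909 counts, a ratio of 2.79 (2.45 to 3.17). The antisense gene Hand2os1 covers 19.6% of its exonic length, and the kit does not mark strand. Ret, a receptor tyrosine kinase of autonomic neurons, went from 109 to 43 counts, a ratio of 0.401 (0.273 to 0.571). The neurotrophin gene Ntf3 was lower, from 81 to 28 counts, 2.83-fold (1.85 to 4.58), whereas Bdnf had 46 and 47 counts. Ret, Ntf3, Bdnf and Prph were named after their values were seen.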
